A study of Mus musculus with 36 samples.

Results

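Neutrophil transcripts and the transcript of their growth factor were followed across 36 mouse tumors. The set holds 10 of the 37417 genes in the count table. S100a8, S100a9, Csf3r, Ly6g, Retnlg, Clec4d, Clec4e, Trem1 and Ngp are transcripts of neutrophils and other myeloid cells, and Csf3 encodes the growth factor G-CSF. All 10 were found in the table by 1 Ensembl identifier each.

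Neutrophils are short-lived granulocytes that are made in bone marrow and enter inflamed tissue and tumors. G-CSF, the product of Csf3, binds the receptor encoded by Csf3r on their precursors and drives their production and release. It is made by fibroblasts, macrophages, endothelial cells and some cancer cells in response to inflammatory signals, so a Csf3 transcript need not come from the cells that carry its receptor. S100a8 and S100a9 encode the partners of calprotectin, the most abundant cytosolic protein complex of neutrophils, which monocytes and stressed keratinocytes also make.

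Bulk mRNA was sequenced from subcutaneous tumors of wild type mice aged 12 weeks, with 1 library per tumor. The labels name MC38 and PancO2 tumors in C57BL/6J mice and CT26 tumors in BALB/c mice, each treated with control IgG, anti-CTLA4 or anti-PD-1 at 10 mg per kg, which gives 9 labelled groups of 4 libraries. MC38 and CT26 are colon carcinoma lines and PancO2 is a pancreatic carcinoma line, each grown here as a graft of 1 line, so a model stands for 1 line. The study set tumors that respond to antibodies against the checkpoint receptors PD-1 and CTLA4 beside tumors that do not. In bulk tissue, fewer cells of a type and less RNA per cell cannot be told apart.

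The labelled groups could not be taken at face value. H2-Ea-ps, a transcript that C57BL/6 mice do not express because of a promoter deletion and BALB/c mice do, went against the strain label in 16 of 36 libraries. Libraries were therefore described by expression class. The H2-Ea-ps class holds the 12 libraries above 10 CPM (counts per 1000000 counts assigned to genes) of that transcript, which ran from 32.8 to 134 CPM there and reached at most 0.0845 CPM elsewhere. The Cp class holds the 12 libraries above 1000 CPM of Cp, the gene of the copper-binding plasma protein ceruloplasmin, at 1389 to 2168 CPM. The third class holds the other 12, with Cp at 255 to 611 CPM. No label names these classes. Each class holds libraries of all 3 labelled models and all 3 labelled treatments, and libraries below are named by labelled group and mouse number. Totals ran from 7883106 to 41751023 counts, with a median of 27968270. The shallowest library, PancO2 anti-PD-1 71, belongs to the H2-Ea-ps class and left 86.5% of its reads unassigned, against at most 63.4% in the others. The labels do not say whether tumors of a group were handled separately, so p-values measure the spread between these libraries.

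The members lie on 8 chromosomes of GRCm38. S100a8 (chromosome 3, 90668978 to 90670035, plus strand) and S100a9 (chromosome 3, 90692632 to 90695721, minus strand) are neighbors. So are Clec4d (chromosome 6, 123262111 to 123275265, plus strand) and Clec4e (chromosome 6, 123281789 to 123289870, minus strand), which encode C-type lectin receptors of myeloid cells for microbial glycolipids. Csf3 lies on chromosome 11 (98701263 to 98703629, plus strand) and Csf3r on chromosome 4 (126024550 to 126044440, plus strand). The promoters of the 4 members that went with Csf3 in the third class, as described below, are shown because these members moved together while lying on 3 chromosomes. Each is the 250 bases before the transcription start in RefSeq on GRCm38.p6, written 5′ to 3′ on the strand of the gene, with motif matches in capitals. RefSeq gave a promoter for 9 of the 10 members. The windows are chr3:90668821-90669070 (plus) for S100a8, chr3:90695722-90695971 (minus) for S100a9, chr16:48872358-48872607 (plus) for Retnlg and chr6:123289872-123290121 (minus) for Clec4e.
S100a8: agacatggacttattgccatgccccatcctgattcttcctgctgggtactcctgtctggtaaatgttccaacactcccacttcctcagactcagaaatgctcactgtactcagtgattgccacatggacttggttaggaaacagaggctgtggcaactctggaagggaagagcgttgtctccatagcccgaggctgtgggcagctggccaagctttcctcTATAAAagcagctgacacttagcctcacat
S100a9: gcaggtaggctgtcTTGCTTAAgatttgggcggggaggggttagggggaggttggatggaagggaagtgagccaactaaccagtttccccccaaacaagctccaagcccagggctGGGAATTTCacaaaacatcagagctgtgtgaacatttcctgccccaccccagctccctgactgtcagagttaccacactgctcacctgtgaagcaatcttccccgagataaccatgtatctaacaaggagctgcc
Retnlg: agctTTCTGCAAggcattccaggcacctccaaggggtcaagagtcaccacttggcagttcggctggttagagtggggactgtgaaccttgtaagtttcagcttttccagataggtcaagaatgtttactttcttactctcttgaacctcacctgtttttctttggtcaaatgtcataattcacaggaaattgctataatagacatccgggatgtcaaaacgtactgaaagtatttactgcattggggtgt
Clec4e: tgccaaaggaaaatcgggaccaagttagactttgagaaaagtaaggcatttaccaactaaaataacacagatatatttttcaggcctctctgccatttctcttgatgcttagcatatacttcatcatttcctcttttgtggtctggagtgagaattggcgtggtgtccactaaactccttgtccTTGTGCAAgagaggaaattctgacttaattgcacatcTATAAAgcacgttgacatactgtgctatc

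3 motifs were searched, chosen with these promoters in view. The core bound by C/EBP factors, which direct granulocyte genes, was taken as TTGCNNAA on both strands, the NF-kB core as GGGNNTTTC on both strands, and the TATA box as TATAAA on the strand of the gene. No match printed here overlapped another. Positions count from the start, with -1 the base before it. S100a9 held a C/EBP core at -236 to -229 and an NF-kB core at -135 to -127. Retnlg held a C/EBP core on the opposite strand at -246 to -239, and Clec4e one on that strand at -66 to -59. The TATA box was found in S100a8 at -30 to -25 and in Clec4e at -29 to -24. Among the members not shown, Ly6g held a C/EBP core on the opposite strand at -232 to -225 and a TATA box at -99 to -94. Ngp held a C/EBP core at -138 to -131 and another on the opposite strand at -11 to -4. Csf3r, Clec4d and Trem1 held none of the motifs. The C/EBP core was thus not particular to the members shown. Of 32851 RefSeq promoter windows of the same length, 9.56% held the C/EBP core, 3.72% the NF-kB core and 7.59% the TATA box. These are matches of letters and not measured binding.

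Csf3, the growth factor gene, was the member that differed most in level between the classes. It ran from 0.317 to 24.2 CPM in the third class, with a median of 1.70 CPM and 2158 counts in all. In the H2-Ea-ps class it had 16 counts in all, at most 4 in a library and none in 4 libraries, and its level lay between 0 and 0.162 CPM. In the Cp class it had 70 counts in all, none in 6 libraries, and only PancO2 anti-PD-1 70 (39 counts, 0.934 CPM) and PancO2 IgG 48 (23 counts, 0.645 CPM) exceeded 0.0900 CPM. Every library of the third class lay above every library of the H2-Ea-ps class, while those 2 libraries of the Cp class overlapped the lower end of the third class. The lowest library of the third class, CT26 anti-PD-1 41, had 9 counts (95% exact Poisson interval 0.145 to 0.601 CPM), and the highest library of the H2-Ea-ps class, PancO2 anti-PD-1 64, had 3 counts (0.0333 to 0.472 CPM). These intervals overlap, so the gap at that edge is within counting error. Such intervals cover counting error only.

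**Figure D1:**
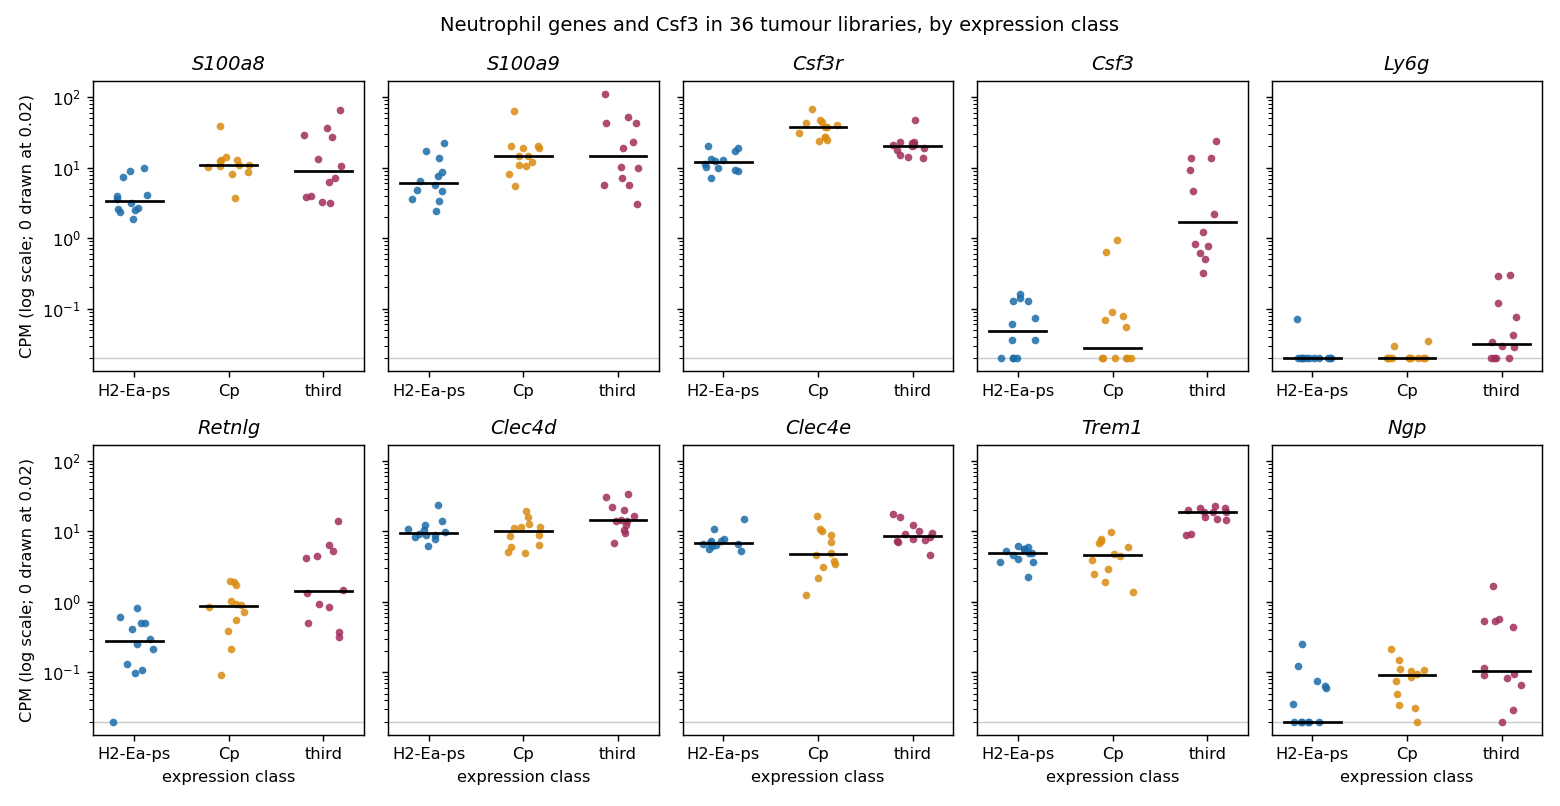
CPM of the 10 genes in each of 36 libraries on a log axis, by expression class, with 1 point per library, a black bar at the class median and 0 drawn at 0.02. Csf3 is at 0.317 to 24.2 CPM in the third class and at most 0.934 CPM elsewhere, while Csf3r is highest in the Cp class at 24.1 to 67.4 CPM.

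Csf3r, the receptor gene, was ordered differently from its ligand. Its median was 37.9 CPM in the Cp class (24.1 to 67.4), 20.5 CPM in the third class (13.6 to 48.2) and 11.9 CPM in the H2-Ea-ps class (7.05 to 20.5). The libraries of the Cp class and the H2-Ea-ps class did not overlap, and their medians differed 3.20-fold. Of 8 members tested, Csf3r was the 1 member without overlap between these classes, and 31% of the 15217 genes that passed a filter of 1 CPM in 4 or more of the 36 had none either. The third class overlapped both others.

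Trem1, which encodes an activating receptor that amplifies inflammatory responses of neutrophils and monocytes, was higher in the third class. It lay between 8.76 and 23.0 CPM there, with a median of 18.97, against 2.28 to 6.19 CPM in the H2-Ea-ps class and 1.39 to 9.65 CPM in the Cp class. The third class and the H2-Ea-ps class did not overlap in Trem1 or Csf3, which makes 2 of 8 members, against 26.2% of all genes. Csf3 passed the filter only through the third class, being at most 0.934 CPM elsewhere. Its gap lay within counting error at the edge, so this count is uncertain. Between the Cp class and the third class 0 of 8 members were free of overlap, against 30.2% of all genes. CT26 anti-PD-1 41 and MC38 anti-CTLA4 11, at 8.76 and 9.23 CPM, were the libraries of the third class that overlapped the Cp class in Trem1. The members were thus apart between classes no more often than genes in general. No test was made between the classes, since they were set from the same libraries.

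S100a8 and S100a9 varied more within a class than between class medians. S100a9 had medians of 6.13, 14.6 and 14.4 CPM in the H2-Ea-ps class, the Cp class and the third class, and ranges of 2.45 to 22.3, 5.52 to 63.1 and 3.03 to 110 CPM. S100a8 had medians of 3.39, 10.9 and 8.94 CPM, and ranges of 1.86 to 10.0, 3.72 to 39.4 and 3.20 to 66.4 CPM. All 3 classes overlapped in both genes. MC38 IgG 2 was the highest library of the third class in both, and its S100a9 was 36.4 times that of the lowest. PancO2 IgG 48 was the highest of the Cp class in both. That library also had 629.7 CPM summed over 9 keratinocyte and skin markers, where the median of its class was 8.50 CPM and the lowest library had 6.32 CPM. The part of skin in its S100a8 and S100a9 was not tested.

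Retnlg, which encodes a resistin-like secreted protein of marrow and blood neutrophils, was low. Its medians were 0.274 CPM in the H2-Ea-ps class, 0.863 CPM in the Cp class and 1.42 CPM in the third class, where it reached 14.1 CPM in MC38 IgG 2. Clec4d ran from 6.26 to 23.8 CPM in the H2-Ea-ps class, from 4.996 to 19.4 CPM in the Cp class and from 6.92 to 33.7 CPM in the third class. Clec4e ran from 5.30 to 15.1, from 1.26 to 16.3 and from 4.62 to 17.5 CPM in the same order. The classes overlapped in all 3 of these genes.

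Ly6g and Ngp, the most neutrophil-restricted members, were near the detection limit. Ly6g encodes the surface antigen used to sort mouse neutrophils, and Ngp a granule protein of maturing neutrophils in marrow. Ly6g had at most 1 count in any library of the H2-Ea-ps and Cp classes and at most 9 counts in the third class, reaching 0.298 CPM in CT26 anti-CTLA4 32 and 0.293 CPM in MC38 IgG 2. Ngp had at most 2, 5 and 52 counts in the H2-Ea-ps class, the Cp class and the third class, and the 52 counts (1.69 CPM) were in MC38 IgG 2. A count of 0 allows up to 0.0865 to 0.127 CPM in the third class and up to 0.381 CPM in the shallowest library. The members at higher levels, such as S100a9, Csf3r, Clec4d and Clec4e, are also expressed by monocytes and macrophages, and Ly6g was at 0 in 11 libraries of the H2-Ea-ps class, 10 of the Cp class and 4 of the third class. Ly6g belongs to a family of close copies, and reads that fit several places are not assigned to it, so its counts are uncertain.

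Whether Csf3 went with the neutrophil genes was asked within each class, over 12 libraries, on log2 CPM with a prior count of 2. A gene entered when it was above 1 CPM in at least 4 of the libraries. By this filter 6 of 10 members entered in the H2-Ea-ps class, 7 in the Cp class and 8 in the third class, and only there did Csf3 itself pass.

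In the third class, the libraries took nearly the same order in Csf3, S100a8, S100a9 and Retnlg. Csf3 was at 0.317 CPM in CT26 anti-PD-1 41, 0.506 in MC38 anti-CTLA4 11, 0.620 in PancO2 IgG 51, 0.778 in CT26 anti-PD-1 40, 0.836 in PancO2 anti-CTLA4 61 and 1.21 in MC38 anti-PD-1 19. In the same 6 libraries S100a9 was at 3.03, 5.69, 7.03, 5.73, 9.83 and 10.1 CPM. Csf3 was at 2.19 CPM in PancO2 IgG 49, 4.72 in CT26 anti-CTLA4 32, 9.34 in CT26 IgG 29, 13.6 in MC38 IgG 2, 13.9 in MC38 anti-CTLA4 10 and 24.2 in CT26 IgG 24. There S100a9 was at 18.8, 23.1, 42.4, 110, 52.6 and 43.7 CPM. The 6 libraries lower in Csf3 were also the 6 lower in S100a9, and both sets held libraries of all 3 labelled models. The 3 libraries labelled anti-PD-1 were all among the lower 6.

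**Figure D2:**
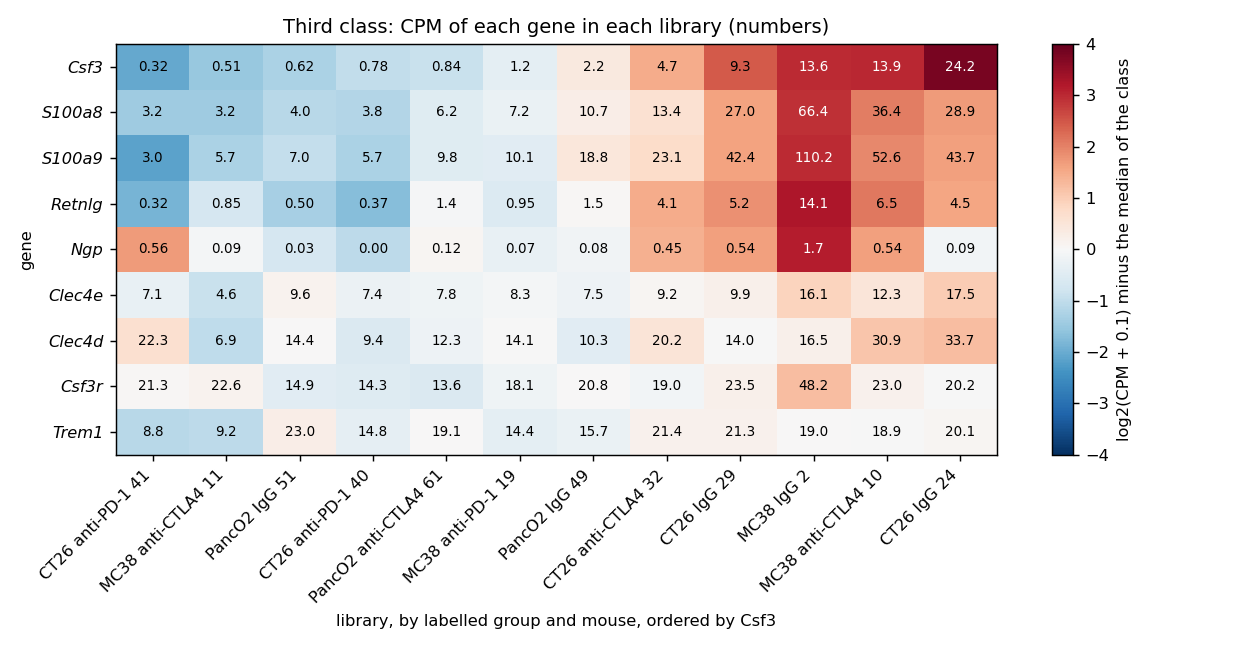
CPM of 9 genes (rows, numbers in the cells) in the 12 libraries of the third class (columns), ordered by Csf3, with color showing log2(CPM + 0.1) minus the median of the class. S100a8, S100a9 and Retnlg follow the order of Csf3, from 0.317 to 24.2 CPM, while Csf3r stays between 13.6 and 23.5 CPM in every library but MC38 IgG 2.

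S100a8 correlated with Csf3 at r = 0.959 (permutation p = 2e-05, adjusted p = 0.0229) and rho = 0.965 (permutation p = 1e-05, adjusted p = 0.0343). For S100a9, r was 0.954 (permutation p = 2e-05, adjusted p = 0.0229) and rho was 0.965 (permutation p = 1e-05, adjusted p = 0.0343). For Retnlg, r was 0.923 (permutation p = 7e-05, adjusted p = 0.0315) and rho was 0.916 (permutation p = 6e-05, adjusted p = 0.0629). For Clec4e, r was 0.845 (permutation p = 0.00021, adjusted p = 0.0335) and rho was 0.860 (permutation p = 0.00063, adjusted p = 0.107). All tests were two-sided with 100000 permutations, 1e-05 is the smallest p they can give, and p-values were adjusted over the 13723 genes tested. Thus 4 of 7 members passed by Pearson's r and 2 of 7, S100a8 and S100a9, by Spearman's rho. Among all genes 2.27% passed by r, 1.48% with r above 0, and 11 genes passed by rho. The median r of the 7 members was 0.845, that of all genes 0.0599.

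Csf3r, Clec4d and Trem1 did not pass in the third class. Csf3r had r = 0.539 (permutation p = 0.0561, adjusted p = 0.245) and rho = 0.385 (permutation p = 0.218, adjusted p = 0.505). Clec4d had r = 0.610 (permutation p = 0.0382, adjusted p = 0.203) and rho = 0.511 (permutation p = 0.0941, adjusted p = 0.344). Trem1 had r = 0.613 (permutation p = 0.0318, adjusted p = 0.186) and rho = 0.455 (permutation p = 0.14, adjusted p = 0.412). The receptor gene thus had the lowest coefficient with its ligand among the 7, although all 7 were above 0.

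Leaving out MC38 anti-CTLA4 10 and CT26 IgG 24, the libraries farthest from the class median in Csf3, left 3 genes past the threshold, S100a8 and S100a9 among them. S100a8 then had r = 0.972 and S100a9 r = 0.976 (both permutation p = 1e-05, adjusted p = 0.0457). Retnlg had r = 0.951 (permutation p = 8e-05, adjusted p = 0.122) and Clec4e r = 0.753 (permutation p = 0.00524, adjusted p = 0.543). Csf3r had 0.653, Trem1 0.607 and Clec4d 0.266 without them. Whether a member passed depended in part on single libraries. A p near the smallest that 100000 permutations can give passes only when several genes reach a p of that size. A call can therefore be lost while r hardly changes. Without MC38 anti-CTLA4 10 or without CT26 IgG 29, 0 of 7 members passed, with r of 0.948 or more and adjusted p of 0.0549 and 0.0565 for S100a8 and S100a9. Without CT26 anti-CTLA4 32 only S100a9 passed (adjusted p = 0.049, 0.0546 for S100a8). Without MC38 anti-PD-1 19, CT26 anti-PD-1 41 or PancO2 anti-CTLA4 61, S100a8 and S100a9 passed and Retnlg and Clec4e did not, and without CT26 IgG 24 Clec4e alone was lost (adjusted p = 0.12). Across all 12 such removals r stayed between 0.953 and 0.976 for S100a8, between 0.946 and 0.974 for S100a9, between 0.907 and 0.953 for Retnlg and between 0.790 and 0.893 for Clec4e.

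**Figure D3:**
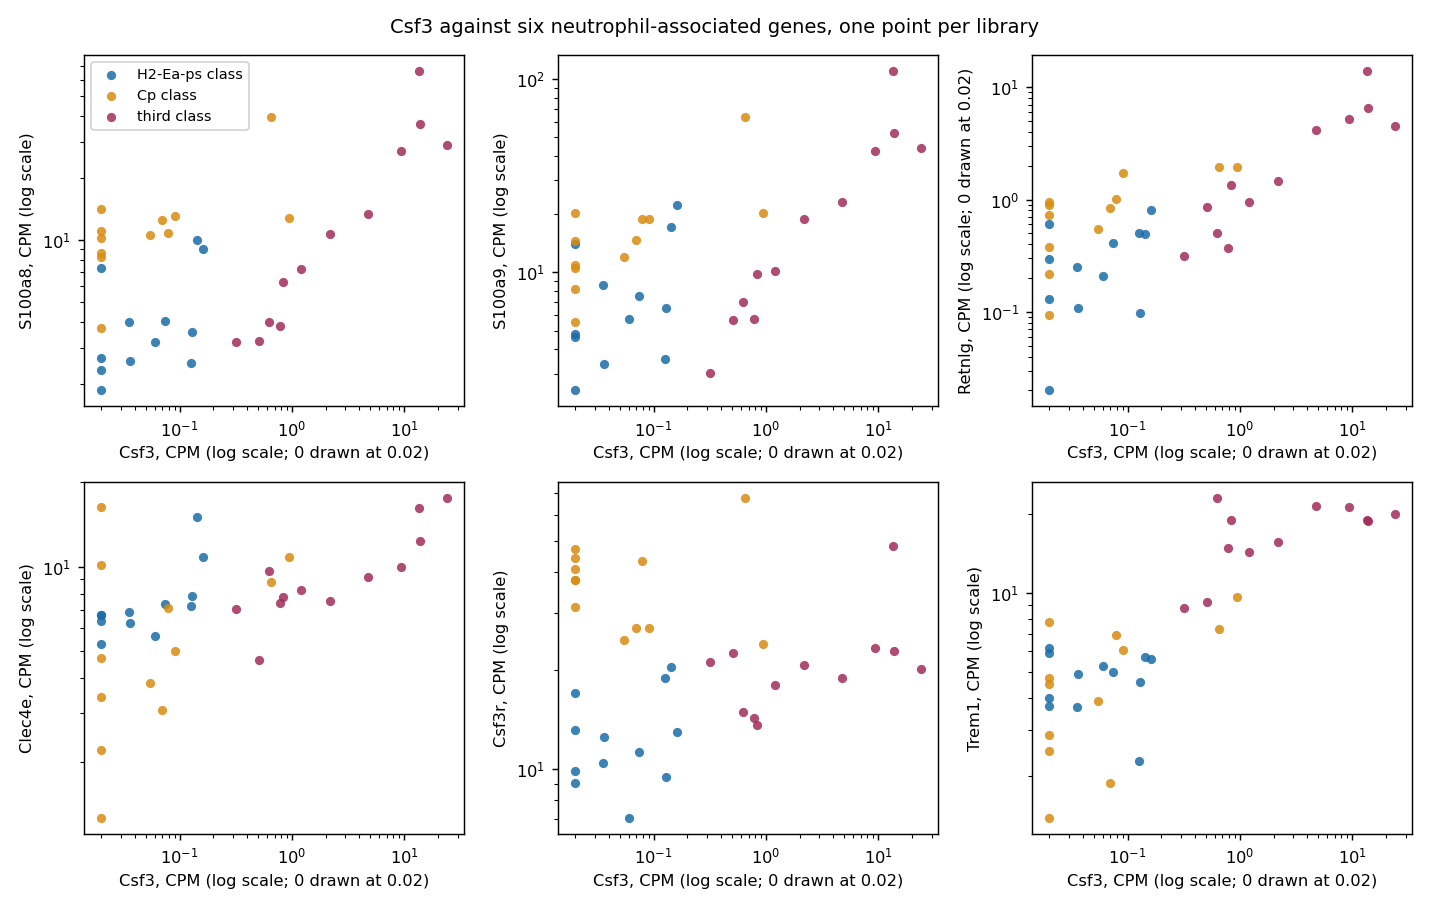
Csf3 (x axis) against S100a8, S100a9, Retnlg, Clec4e, Csf3r and Trem1 (y axes) in CPM on log axes, with 1 point per library colored by class and 0 drawn at 0.02. The libraries of the third class rise together in S100a8 (r = 0.959), S100a9 (r = 0.954) and Retnlg (r = 0.923), while those of the H2-Ea-ps class stay at or below 0.162 CPM of Csf3.

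A slope fitted to the raw counts by edgeR gave the same 4 members. A 1 unit higher log2 CPM of Csf3 went with 0.72 log2 units of S100a8 (SE 0.06, adjusted p = 0.000225), 0.75 of S100a9 (SE 0.07, adjusted p = 0.000397), 0.80 of Retnlg (SE 0.09, adjusted p = 0.0016) and 0.21 of Clec4e (SE 0.04, adjusted p = 0.0334). The slopes were 0.13 for Csf3r (SE 0.06), 0.18 for Clec4d (SE 0.07), 0.11 for Trem1 (SE 0.05) and 0.43 for Ngp (SE 0.20), none past the threshold. Thus 4 of 8 members passed with a slope above 0, against 0.599% of the 16029 genes in this fit.

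The relation was also computed within the labelled antibodies. After the means of the labelled antibodies in the third class were taken out, r was 0.940 for S100a8 (adjusted p = 0.0161 by permutation). By the same permutation test r was 0.934 for S100a9 (adjusted p = 0.0206) and 0.912 for Retnlg (adjusted p = 0.0268), and Clec4e passed as well (adjusted p = 0.0457). Of all 13723 genes 374 passed here. The residuals were permuted over all 12 libraries and not within labels, so these p-values may be too small. The labels went against the strain marker in 16 of 36 libraries. The step therefore takes out the labelled means and may not hold the treatment fixed. Values that bear on library quality and skin were set beside Csf3, a choice made after the data were seen. Over the 12 libraries, Csf3 had r = -0.0727 with log2 total counts (permutation p = 0.816, adjusted p = 0.895), and rho was -0.105 (permutation p = 0.747, adjusted p = 0.833). With the share of unassigned reads r was -0.536 (permutation p = 0.0725, adjusted p = 0.353), rho was -0.427 (permutation p = 0.17, adjusted p = 0.587), and r was -0.195 without the 2 farthest libraries. With the summed skin markers, which ran from 3.06 to 96.7 CPM and were highest in CT26 IgG 29, r was 0.184 (permutation p = 0.571, adjusted p = 0.856), and rho was 0.322 (permutation p = 0.307, adjusted p = 0.587). These are 3 of 6 relations of the kind, the other 3 having S100a9 in place of Csf3 with r from -0.476 to 0.199. Their part in the result was not tested further.

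In the other classes Csf3 was too low for the relation to be read firmly, and no member passed. In the H2-Ea-ps class Csf3 had at most 4 counts. There 0 of 6 members and 0% of 13574 genes passed by permutation, with 497 genes and 1 member at an unadjusted p under 0.05, and the edgeR slope gave 0 genes, with 1021 unadjusted. The coefficients of 5 of the 6 members were above 0, with a median of 0.459 against -0.155 for all genes. Clec4e had r = 0.704 (permutation p = 0.00243, adjusted p = 0.914) and rho = 0.803 (permutation p = 0.00265, adjusted p = 0.936), S100a8 had r = 0.494 (permutation p = 0.106) and S100a9 r = 0.452 (permutation p = 0.14). Without the 2 farthest libraries, PancO2 IgG 54 and PancO2 anti-PD-1 64, r was 0.580 for Clec4e, 0.0508 for S100a8 and 0.0077 for S100a9. It was 0.026 for Csf3r, -0.0205 for Clec4d and -0.414 for Trem1. The median of the 6 members fell to 0.0168, against -0.246 for all genes, with 4 of 6 above 0.

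In the Cp class 10 of the 12 libraries had at most 3 counts of Csf3. There 0 of 7 members and 0% of 13957 genes passed by permutation, with 870 genes and 3 members unadjusted, while the edgeR slope gave 4 genes and no member. The coefficients of 6 of the 7 members were above 0, with a median of 0.563 against -0.0465 for all genes. S100a9 had r = 0.715 (permutation p = 0.00795, adjusted p = 0.734) and rho = 0.653 (permutation p = 0.0254, adjusted p = 0.382). Retnlg had r = 0.690 (permutation p = 0.016, adjusted p = 0.777) and rho = 0.696 (permutation p = 0.0154, adjusted p = 0.352), and S100a8 had r = 0.634 (permutation p = 0.032, adjusted p = 0.785) and rho = 0.529 (permutation p = 0.0809, adjusted p = 0.461). Csf3r had r = -0.0434 (permutation p = 0.897, adjusted p = 0.984). Without PancO2 IgG 48 and PancO2 anti-PD-1 70, the only libraries above 3 counts, r was 0.532 for S100a9, 0.570 for Retnlg and 0.422 for S100a8. It was 0.223 for Trem1, 0.0374 for Clec4e, -0.254 for Clec4d and -0.589 for Csf3r. None of the 7 had an unadjusted permutation p under 0.05. The median of the 7 fell to 0.223, against -0.0909 for all genes, with 5 of 7 above 0. PancO2 IgG 48 was the highest library of its class in S100a8, S100a9 and Csf3r, and PancO2 anti-PD-1 70 was the highest in Retnlg and Trem1 and the lowest in Csf3r.

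The slopes themselves were not shown to differ between classes. In an edgeR fit of all 36 libraries, the slope of S100a8 on Csf3 was higher in the third class than in the Cp class by 0.31 (SE 0.16, adjusted p = 1) and than in the H2-Ea-ps class by 0.02 (SE 0.31, adjusted p = 0.999). For S100a9 the differences were 0.23 (SE 0.18, adjusted p = 1) and -0.05 (SE 0.34, adjusted p = 0.981). None of 8 members passed in any of the 3 contrasts and none had an unadjusted p under 0.05 (with a prior count of 0.5, 2 members did against the H2-Ea-ps class and 3 against the Cp class). Among all genes 4.12% passed for the third class against the H2-Ea-ps class, 0.0105% for the third class against the Cp class and 0.998% for the Cp class against the H2-Ea-ps class. Each of these counts fell to 0 without PancO2 anti-PD-1 71 and also with a prior count of 0.5 in the Csf3 covariate. The standard errors are too wide to say that the slopes are alike.

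The neutrophil genes were also compared among themselves. S100a8 and S100a9 lay close in every class, with r = 0.973 in the H2-Ea-ps class (permutation p = 1e-05, adjusted p = 0.0679), 0.930 in the Cp class (permutation p = 0.0002, adjusted p = 0.388) and 0.989 in the third class (permutation p = 1e-05, adjusted p = 0.0229), for S100a9 against all other genes. The rho values were 0.958 (permutation p = 1e-05, adjusted p = 0.136), 0.839 (permutation p = 0.00112, adjusted p = 0.614) and 1 (permutation p = 1e-05, adjusted p = 0.0229), so the 12 libraries of the third class had the same order in both genes. Only the third class passed the adjustment. In the H2-Ea-ps class the p was the smallest that 100000 permutations can give, and over so many genes a p of that size passes only when several genes share it. Without PancO2 IgG 48 the r of the Cp class was 0.839. Of the members tested with S100a9, 3 of 7 passed in the third class, which were S100a8, Csf3 and Retnlg (r = 0.973, permutation p = 1e-05, adjusted p = 0.0229), all above 0, against 0.124% of all genes, or 0.117% with r above 0. In the H2-Ea-ps class 0 of 5 members and 0% of 13573 genes passed, with 1105 genes unadjusted, and in the Cp class 0 of 6 members and 0% of 13956 genes, with 533 unadjusted.

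Over all pairs of members without Csf3, the median r was 0.536 in the H2-Ea-ps class (15 pairs), 0.550 in the Cp class (21 pairs) and 0.656 in the third class (21 pairs). In these pairs r was above 0 in 14 of 15, 20 of 21 and 20 of 21. Pairs share genes and are not independent. Csf3r stood apart from Trem1 in every class, with r of -0.441, -0.0588 and -0.0332, none past the threshold (adjusted p of 0.243 or more by permutation, whichever gene was set against all others). Clec4e and Trem1 were closest in the Cp class, with r = 0.889 and rho = 0.930. For Clec4e against all genes the permutation gave an adjusted p of 0.0393 for r and 0.0511 for rho, and for Trem1 against all genes 0.0449 and 0.0279. In that class 4.18% of all genes passed by r with Clec4e and 2.14% with Trem1. Clec4d and Clec4e, its neighbor, had r of 0.764, 0.711 and 0.747 in the 3 classes, but rho of 0.308, 0.671 and 0.657. PancO2 IgG 54 was the highest library of the H2-Ea-ps class in both genes. Clec4d and S100a9 had r of 0.740, 0.618 and 0.460. None of these passed. The third-class value of Clec4d with S100a9 was 0.787 without the 2 libraries farthest in S100a9, CT26 anti-PD-1 41 and MC38 IgG 2.

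**Figure D4:**
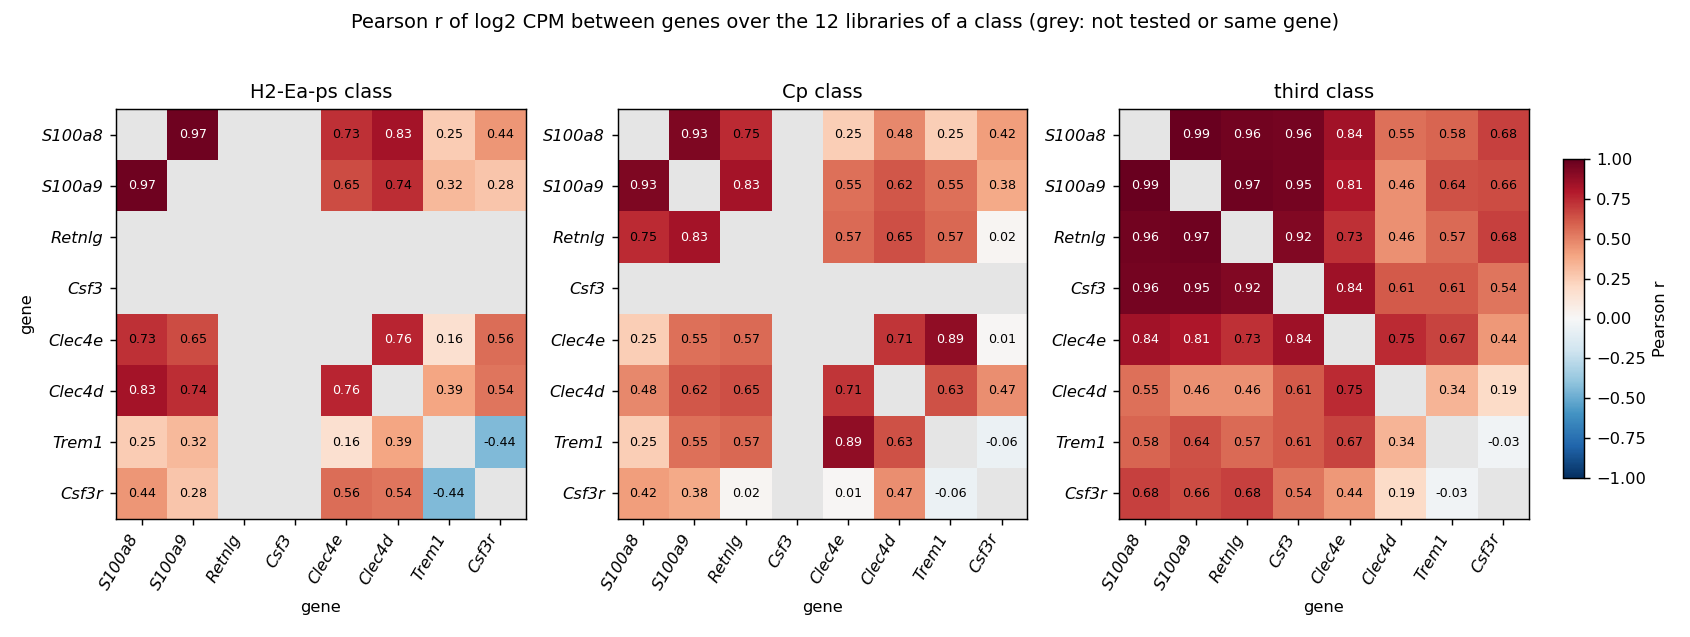
Pearson's r of log2 CPM between pairs of genes (rows and columns) over the 12 libraries of each class, with grey for the same gene or for a gene too low to be tested. In the third class the block of S100a8, S100a9, Retnlg and Csf3 lies between 0.923 and 0.989, whereas Csf3r with Trem1 is at -0.0332.

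Some genes that recruit neutrophils went with Csf3 in the third class. Of 9 listed neutrophil chemoattractants 8 were tested and 4 passed, all above 0, with a median r of 0.855 over the 8. They were Cxcl2 (r = 0.968, adjusted p = 0.0196), Cxcl3 (r = 0.954, adjusted p = 0.0229), Cxcl5 (r = 0.909, adjusted p = 0.0315) and Cxcl1 (r = 0.904, adjusted p = 0.0315), ligands of the chemokine receptor encoded by Cxcr2. Cxcl2 ran from 2.04 to 52.8 CPM, Cxcl3 from 1.27 to 59.3 CPM, Cxcl5 from 0.211 to 19.96 CPM and Cxcl1 from 7.04 to 143 CPM across the 12 libraries. Without the 2 libraries farthest in Csf3, r was 0.945 for Cxcl2 (permutation p = 1e-05, adjusted p = 0.0457), which still passed, and 0.920, 0.903 and 0.880 for Cxcl3, Cxcl5 and Cxcl1, which did not.

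Of 12 listed colony-stimulating factors and inducers of Csf3, 8 were tested and 5 passed, all above 0, with a median r of 0.825. Il6, the gene of an inflammatory cytokine often made by the same stromal cells, had r = 0.959 (adjusted p = 0.0229) at 0.352 to 11.5 CPM. Csf2, which encodes the growth factor GM-CSF, had r = 0.910 (adjusted p = 0.0324) at 0.282 to 3.94 CPM. Osm, the gene of the cytokine oncostatin M, had r = 0.904 (adjusted p = 0.0355) at 2.25 to 14.4 CPM. Lif and Il1b were the others. Tnf had r = 0.497 (adjusted p = 0.326).

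Of 12 listed neutrophil receptors and surface genes 10 were tested and 2 passed. These were Cxcr2 (r = 0.860, adjusted p = 0.0399), the chemokine receptor that brings neutrophils into tissue, and Hcar2 (r = 0.799, adjusted p = 0.0451), a receptor for niacin and ketone bodies, and the median of the 10 was 0.511. Of 12 listed granule proteins only 5 were tested and 1 passed, Lcn2 (r = 0.933, adjusted p = 0.0261), the iron-binding protein lipocalin 2 that epithelia also make, and the median of the 5 was 0.188. All adjusted p-values here are from permutation tests over all genes of the class. These 12 calls over 4 lists depend on single libraries. Of the 12, only Cxcl2 remained without the 2 farthest libraries, where r was 0.740 to 0.955 over the 12, and Cxcl1, Cxcl2 and Il6 passed by Spearman's rho. Leaving out 1 library kept 2 (without CT26 IgG 29) to 12 calls. It kept 3 without MC38 anti-CTLA4 10, CT26 anti-CTLA4 32 or CT26 anti-PD-1 41, 4 without CT26 IgG 24, 5 without MC38 anti-PD-1 19, 6 without PancO2 anti-CTLA4 61 and 9 or more in the other 5 removals. Cxcl2 and Cxcl3 remained in all 12.

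Markers of other cells did not pass with Csf3 in the third class. This holds for 10 of 10 macrophage and monocyte genes tested (r from -0.603 to 0.618), 7 T and NK cell genes (-0.125 to 0.338), 4 mast cell and basophil genes (-0.270 to 0.729), 3 keratinocyte genes (0.134 to 0.270), 7 fibroblast genes (-0.331 to 0.726), 5 endothelial genes (-0.243 to 0.331), 5 skeletal muscle genes (-0.141 to 0.388), 5 erythroid genes (0.385 to 0.492) and 10 hypoxia and glycolysis genes (-0.109 to 0.519). Also without a pass were 5 transcription factors of granulocytes (-0.422 to 0.475) and 2 B cell genes (0.270 and 0.282), and no eosinophil gene was high enough to be tested. Mast cell genes had a median r of 0.698, at a summed level of 9.29 to 36.9 CPM that was highest in CT26 IgG 24. Their part in the result was not tested.

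**Figure D5:**
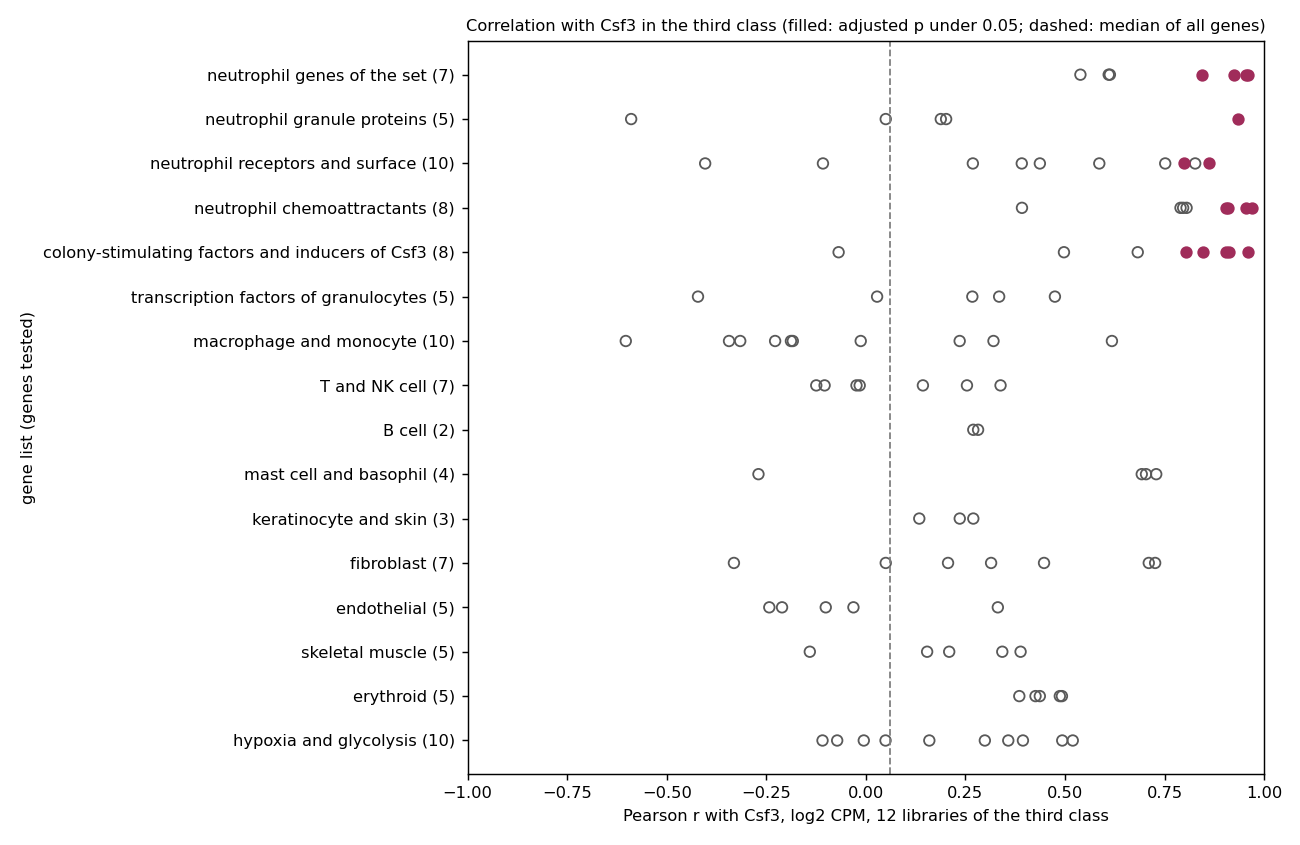
Pearson's r with Csf3 over the 12 libraries of the third class (x axis) for the members and for the genes of 15 lists (rows, with the number tested), filled where the adjusted p is under 0.05 and with a dashed line at the median of all genes, 0.0599. Filled points are found only among the neutrophil, chemoattractant and cytokine rows, where the chemoattractants reach r = 0.968.

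S100a9 gave a similar list in the third class. Cxcl2 (r = 0.951), Cxcl3 and Cxcl1 passed among 8 chemoattractants, Csf2 (r = 0.949) among 8 cytokines and Lcn2 (r = 0.925) among 5 granule proteins, and no gene passed among the 10 receptors or in any other list. Csf3 and S100a9 were measured in the same libraries, so these are not independent of the relations with Csf3.

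The genes most like Csf3 and S100a9 were ranked by the median of the 3 within-class r values over genes tested in every class, given here in the order H2-Ea-ps class, Cp class and the third class. The top 5 for Csf3 among 12611 genes were Il6 (0.389, 0.9003 and 0.959), Cxcl5 (0.370, 0.864 and 0.909), Cxcl2 (0.571, 0.839 and 0.968), Serpinb2 (0.0251, 0.832 and 0.838), which encodes plasminogen activator inhibitor type 2, and Zc3h12a (0.585, 0.799 and 0.803), which encodes the RNase Regnase-1 that degrades cytokine mRNAs. For all 5 the median is the value of the Cp class, and the value of the H2-Ea-ps class was the lowest, near 0 for Serpinb2. In the Cp class Csf3 was at 0 in 6 libraries, with a median of 0.5 counts, and 0% of 13957 genes passed. The ranking thus rests on values that cannot be read firmly. Zc3h12a did not pass in the third class (adjusted p = 0.0678 by permutation).

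The top 5 for S100a9 among 12610 genes were Cxcl2 (0.901, 0.823 and 0.951), Cxcl5 (0.589, 0.892 and 0.912), Hcar2 (0.908, 0.482 and 0.877), Mxd1 (0.866, 0.324 and 0.926), which encodes a partner of MAX, and Rab44 (0.797, 0.840 and 0.968), the gene of a large Rab GTPase. In the third class Cxcl2, Mxd1 and Rab44 passed by permutation, and Cxcl5 (adjusted p = 0.0549) and Hcar2 (adjusted p = 0.0755) did not. Cxcl2 and Cxcl5 were in both groups of 5.

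The labelled comparisons gave no call among the members. Between the labelled models in IgG libraries, edgeR's quasi-likelihood test called 0% of 16510 genes in each of 3 comparisons, and between labelled antibodies within a labelled model it called 0% of 16285 to 16410 genes in each of 6. Over all 36 libraries with a term for expression class, each antibody label against IgG gave 0% of 17213 genes. In these 11 comparisons 25 to 912 genes had an unadjusted p under 0.05, and DESeq2 called 0 to 9 genes. None of the 8 members tested by edgeR, nor of the 10 tested by DESeq2, was called in any. The groups mix expression classes and go against the strain marker, so these comparisons are of labels.

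Over all 36 libraries, S100a8 was lower by a log2 fold change of -1.11 (SE 0.41, unadjusted p = 0.0103, adjusted p = 0.942) under the anti-PD-1 label and -1.10 (SE 0.39, unadjusted p = 0.00712, adjusted p = 1) under the anti-CTLA4 label. For S100a9 the values were -1.07 (SE 0.45, adjusted p = 0.942) and -1.24 (SE 0.42, adjusted p = 1), and for Csf3 -1.18 (SE 0.94, adjusted p = 0.944) and -1.25 (SE 0.74, adjusted p = 1). Both contrasts share the 12 IgG libraries, which include MC38 IgG 2 and PancO2 IgG 48, the highest S100a9 libraries of their classes. Within the labelled PancO2 groups, S100a9 was at -1.64 (SE 0.68, unadjusted p = 0.0347, adjusted p = 1) under the anti-CTLA4 label. None of these values passed the adjustment over all genes in edgeR.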

How the data were processed

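Poly-A selected libraries of 36 subcutaneous mouse tumors, made with the TruSeq RNA V2 kit per the labels, were deposited as raw read counts per Ensembl gene. The authors made these counts on mm10. The submitters' processing notes name FastQC 0.11.5, Bowtie2 and HTSeq 07.2, and the strand setting and Ensembl release are not given in the sources used here. HTSeq sets aside reads that fit several places, so genes with close copies are undercounted. The 5 summary lines, 44.8% to 86.5% of reads listed, were left out. A chi-square test of counts between libraries gave at least 6.91 per degree of freedom in all 630 pairs, more than sampling noise.

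CPM were counts per 1000000 over 37417 genes. Symbols and coordinates came from GENCODE M21 on GRCm38. The members, classes, lists and tests were chosen with earlier results of these data known. Labelled comparisons used edgeR 4.0.16 (filterByExpr, TMM, glmQLFit, glmQLFTest) in R 4.3.3. The paper names limma for this work without its samples, so tests that fit counts were used. SE were log2 fold changes over the square root of F. Correlations used Python 3.11.15 and numpy 2.4.6. A gene was called at a p under 0.05 after Benjamini-Hochberg adjustment over all genes of the fit. Steps were checked on simulated data. Named genes were the 10 members, the 5 most like Csf3 and S100a9, up to 3 passing genes per list, H2-Ea-ps and Cp. Lif, Il1b and Tnf were named after their values were seen. Alternatives were DESeq2 1.42.0, its size factors, no filter, a prior count of 0.5, TMM library sizes, the class term added or left out, residuals from antibody means, edgeR slopes and leaving out libraries. Intervals and limits of 0 counts (3 counts) cover counting error only.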

Additional observations from a re-analysis of the deposited data

Results flagged for a closer look

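A library stood apart from the other 3 of its labelled group in 31 of 88 sets of 4 values over the 10 members, by Dixon's 95% criterion. The nominal rate of about 1 in 20 (4.4 sets) assumes independent, normally spread values, and these sets share libraries. Where the other libraries of a group were all at 0, as for Ly6g in CT26 anti-PD-1 46 (1 count), the criterion is always met. In 24 of the 31 the library was the only one of its expression class in that labelled group, so these gaps and the classes cannot be told apart.

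MC38 IgG 2 was high in S100a8 (66.4 CPM, others 3.59 to 14.1), S100a9 (110 CPM), Csf3 (13.6 CPM, others 0 to 0.129), Ly6g (0.293 CPM), Retnlg (14.1 CPM), Trem1 (19.03 CPM) and Ngp (1.69 CPM). CT26 anti-CTLA4 32 was high in S100a8 (13.4 CPM), S100a9 (23.1 CPM), Csf3 (4.72 CPM, others 0 to 0.0602), Ly6g (0.298 CPM), Retnlg (4.13 CPM), Trem1 (21.4 CPM) and Ngp (0.446 CPM). MC38 anti-CTLA4 10 was high in S100a8 (36.4 CPM), Csf3 (13.9 CPM), Ly6g (0.0774 CPM, 2 counts) and Retnlg (6.498 CPM). All 3 libraries belong to the third class.

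CT26 anti-PD-1 46, of the Cp class, was high in S100a8 (13.02 CPM), S100a9 (18.9 CPM), Retnlg (1.71 CPM) and, with 1 count, Ly6g (0.0300 CPM). PancO2 anti-CTLA4 61 was high in Csf3 (0.836 CPM), Trem1 (19.1 CPM) and, with 1 count, Ly6g (0.0288 CPM). PancO2 anti-CTLA4 62 was low in S100a9 (3.35 CPM, others 9.83 to 10.9). PancO2 IgG 48 was high in Csf3r (67.4 CPM), MC38 anti-PD-1 19 in Csf3 (1.21 CPM), PancO2 anti-PD-1 70 in Csf3 (0.934 CPM), CT26 anti-PD-1 41 in Clec4d (22.3 CPM) and CT26 IgG 29 in Ngp (0.543 CPM).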

How the results depend on the processing

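No paired analysis was possible because each mouse number in the labels belongs to 1 library. In place of 0 genes by edgeR, DESeq2 called 3 for PancO2 IgG against MC38 IgG, 3 for CT26 IgG against MC38 IgG, 6 and 9 within PancO2 for the anti-PD-1 and anti-CTLA4 labels, and 1 and 7 over all libraries. With Csf3 in the third class, 311 genes passed, against 195 with TMM library sizes, 22 with no filter beyond 1 count, 3 without the 2 farthest libraries and 169 by the edgeR slope. Leaving out 1 library gave 4 (CT26 IgG 29) to 538 genes (PancO2 IgG 49). In the Cp class the edgeR slope called 4 genes with Csf3 in place of 0. With S100a9, leaving out 1 library gave 0 to 3 genes in the H2-Ea-ps class (3 without MC38 IgG 3 or MC38 anti-PD-1 16) and, in place of 17, 8 (CT26 anti-CTLA4 32) to 322 (MC38 IgG 2) in the third class. The slope differences of 785, 2 and 190 genes became 0, 0 and 0 both with a prior count of 0.5 and without PancO2 anti-PD-1 71. The r of Csf3r with S100a9 turned from 0.279 to -0.0276 in the H2-Ea-ps class and from 0.376 to -0.392 in the Cp class without the 2 farthest libraries, and ran from -0.208 (without PancO2 IgG 48) to 0.506 in the Cp class when 1 was left out. The causes were not tested. The other values for single members are relations with Csf3 in the third class, relations with S100a9 in every class and the class medians, which have no threshold. Of these values, 407 kept their direction and side of the threshold or, as medians, stayed within the spread between libraries. A further 24 no longer passed and 2 newly passed. Relations with Csf3 in the H2-Ea-ps and Cp classes are not in this tally, and some of them changed sign. Without the 2 farthest libraries, r of Clec4d with Csf3 went from 0.465 to -0.0205 in the H2-Ea-ps class. In the Cp class it went from 0.325 to -0.254. Trem1 with Csf3 in the H2-Ea-ps class went from -0.101 to above 0 without PancO2 anti-PD-1 71. No class median moved beyond the spread between libraries with TMM library sizes or without PancO2 anti-PD-1 71. Csf3 at no more than 4 counts limits what the H2-Ea-ps class can show.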

Other observations

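Genes outside the lists also lay near Csf3 and S100a9 in the third class, and were picked after their values were seen. With Csf3 these were Il11 (r = 0.957, adjusted p = 0.0229), a cytokine gene of the Il6 family, G0s2 (r = 0.946, adjusted p = 0.0196), which encodes an inhibitor of fat breakdown, and Hdc (r = 0.936, adjusted p = 0.0261), the gene of the enzyme that makes histamine. With S100a9 they were Hdc (r = 0.982, adjusted p = 0.0229), G0s2 (r = 0.964, adjusted p = 0.025) and Tgm1 (r = 0.955, adjusted p = 0.0229), a transglutaminase gene known from keratinocytes. All are from the permutation tests over 12 libraries, and none of those with Csf3 passed without the 2 libraries farthest in Csf3.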
